A study of Mus musculus with 4 samples.

Results

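Expression of 10 genes of fibroblast growth factor (Fgf) signalling was examined in the mesenchyme of embryonic mouse molars with and without the homeobox gene Msx1. They were the ligand genes Fgf3, Fgf7, Fgf9, Fgf10 and Fgf18 and the receptor genes Fgfr1, Fgfr2, Fgfr3, Fgfr4 and Fgfrl1, taken by name from 22072 gene names in the deposited tables. All 10 were found. The 4 libraries were Msx1-/- (mutant) and Msx1+/- (control) upper molars and Msx1-/- and Msx1+/- lower molars, with 1 library in each group. Every embryo was at day 14 and of mixed background, and the controls were heterozygous, so they also carried a mutant Msx1 allele. The allele is not named in the labels, some of which call the same controls wild type. The mesenchyme, the tissue under the tooth epithelium that later forms pulp and dentin, had been cut out of frozen sections by laser, and tissue of 3 embryo pairs had been pooled before RNA was extracted. No value below has a replicate in its own group.

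Fgfs are secreted proteins that bind receptor tyrosine kinases together with heparan sulfate and activate the Ras and MAP kinase cascade. In the tooth germ, Fgf3 and Fgf10 are known as signals of the mesenchyme to the epithelium, and Fgf4, Fgf9 and Fgf20 as signals of the epithelium to the mesenchyme. Receptors 1 to 3 are made in a IIIb form, typical of epithelia, and a IIIc form, typical of mesenchyme. The forms differ in a single exon that encodes part of the ligand-binding domain. The IIIb form of Fgfr2 is a receptor for Fgf3, Fgf7 and Fgf10. Fgfrl1 binds Fgfs but lacks the tyrosine kinase.

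The promoter of Fgf3, the member with the largest genotype difference, is shown from 250 bases before the start of the gene to 50 bases after it (RefSeq, GRCm38.p6, chr7:144838362-144838661, plus strand).
Fgf3 promoter: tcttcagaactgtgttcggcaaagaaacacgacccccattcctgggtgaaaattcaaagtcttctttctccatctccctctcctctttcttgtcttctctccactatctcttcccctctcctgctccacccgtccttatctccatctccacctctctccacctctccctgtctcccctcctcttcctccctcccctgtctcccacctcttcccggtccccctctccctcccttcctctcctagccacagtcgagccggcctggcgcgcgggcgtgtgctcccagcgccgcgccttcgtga
The motif TAATTG, known to be bound by Msx homeodomain proteins, was searched on both strands. It was not found in these 300 bases of Fgf3, whereas 2628 of 32851 RefSeq promoters of this length held it. The Fgf7 and Fgfr2 windows each held 1 match. A match or its absence in this window is a description and says nothing of binding.

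RNA levels are given as FPKM, fragments scaled to transcript length and to the number of mapped fragments, summed over the transcript entries of a gene. Differences are of log2(FPKM + 1), a scale on which changes of weakly expressed genes look smaller than they are. A gene was counted as higher or lower where this difference was at least 1 in size. Of the 10 genes, 7 were measured, that is, had a mean of at least 1 FPKM and no failed estimate. Fgf9 and Fgfr4 were below that level, and Fgfr1 was set aside because all 3 of its entries were marked as failed estimates in the control upper library. A limma model with genotype and jaw as additive terms, fitted over 10537 genes, gave the only error estimate the design allows. In it the jaws stand in for replicates of a genotype and the genotypes for replicates of a jaw. Its standard error was 0.30 for every gene, because the model found no evidence that genes differ in spread, so its adjusted p-values are no stronger than that assumption.

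Summed coverage over transcripts lay between 264 and 410 megabases, lowest in the mutant lower library. The median gene differed by -0.03 between mutant and control in upper molars and by -0.39 in lower molars, so values relative to that median are added where they bear on a result. Msx1 itself was at 126 and 85.9 FPKM in mutant upper and lower molars, against 170 and 184 FPKM in the controls. A gene-level value does not check the genotype label when the allele is unknown. All 10 markers of dental mesenchyme were measured, with a summed level of 541 FPKM in mutant and 616 FPKM in control upper molars, and 389 FPKM in mutant and 538 FPKM in control lower molars. Of 12 epithelial markers 6 were measured, with a summed level of 55.8 FPKM in mutant and 33.0 FPKM in control upper molars, and 70.8 FPKM in mutant and 52.8 FPKM in control lower molars. Their most abundant member Krt5 was at 21.3 FPKM in mutant and 7.18 FPKM in control upper molars, and 28.1 FPKM in mutant and 17.0 FPKM in control lower molars. Krt14 was next. The epithelial signal gene Shh was listed at 0 in both control libraries and at 0.0190 FPKM in mutant upper and 0.0184 FPKM in mutant lower molars.

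The first comparison asked how ligand and receptor RNA differed between Msx1-/- and Msx1+/- mesenchyme. Fgf3 was almost absent from the mutant libraries of both jaws, and Fgf10 was higher in them, with the larger difference in lower molars. Fgf7 stayed near 1 FPKM in all 4 libraries. Fgf18 differed more between the jaws than between the genotypes. None of the 3 measured receptor genes Fgfr2, Fgfr3 and Fgfrl1 reached the counting threshold in either jaw.

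In upper molars 1 of the 7 measured members (Fgf3) was lower in the mutant and 0 were higher, against 3.26% lower and 1.07% higher of all measured genes. In lower molars 1 (Fgf3) was lower and 1 (Fgf10) was higher, against 9.43% lower and 0.864% higher of all genes. That all-gene split depended on scaling, since 316 genes were lower and 254 higher after rescaling by median of ratios, against 994 and 91 as deposited. Fgf3 was thus the only member counted in both jaws, where 1.59% of all genes were lower and 0.399% higher. The median difference of the 7 members was -0.02 in upper molars, against -0.03 for all genes, and -0.16 in lower molars, against -0.39 for all genes. The limma model called Fgf3 lower and Fgf10 higher at an adjusted p under 0.05, against 5.39% lower and 1.07% higher of all genes. That model was fitted to the values as deposited and was not rerun after rescaling. Its genotype differences and this background therefore include the shift of the median gene, -0.03 in upper and -0.39 in lower molars.

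**Figure D1:**
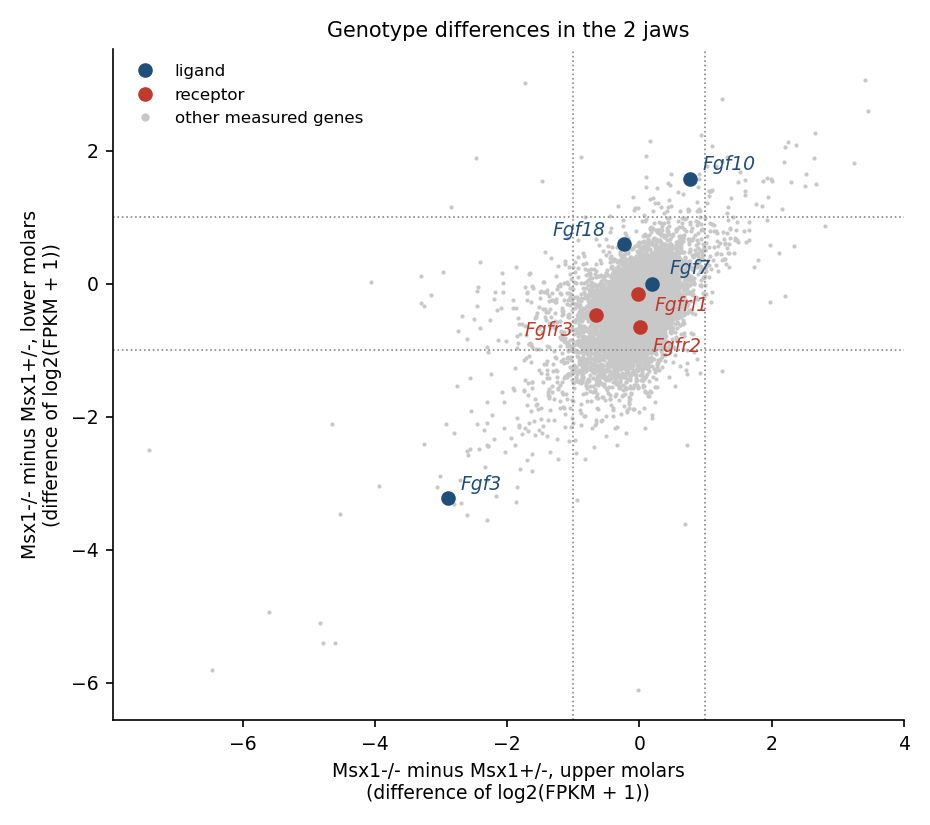
Genotype difference of log2(FPKM + 1), Msx1-/- minus Msx1+/-, in upper molars (horizontal axis) and lower molars (vertical axis) for the measured genes. Ligand genes are blue, receptor genes red and the other genes grey, and dotted lines mark a difference of 1. Fgf3 lies at -2.90 and -3.22, Fgf10 at 0.76 and 1.58, and the other 5 members lie inside the dotted lines.

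Fgf3 (chromosome 7, 152024517 to 152029253, mm9), a mesenchymal ligand that acts on the epithelium, was listed at 0 FPKM in mutant and 6.44 FPKM in control upper molars. In lower molars it was at 0.0365 FPKM in the mutant and 8.66 FPKM in the control. Both mutant values lay far below both control values. The mean read depth over its 1194 bases was 0 in mutant and 6.74 in control upper molars, and 0.0337 in mutant and 7.04 in control lower molars. In the mutant lower library that depth amounts to about 40.2 sequenced bases over the whole transcript. None of 10 housekeeping genes was listed at 0 in any library. Such broadly expressed genes cannot show whether a transcript at the level of Fgf3 was missed. The log2 differences of Fgf3 were -2.90 (upper) and -3.22 (lower), or -2.86 and -2.83 relative to the median gene. In the limma model the mean difference was -3.06 (SE 0.30, adjusted p = 7.21e-22). By mean difference Fgf3 ranked 12 of 10537 genes on the lower side.

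The profile of Fgf3 over the 4 libraries was compared with that of each other measured gene, by the Euclidean distance between log2 values centred on the mean of each gene. The nearest was Timp1, an inhibitor of matrix metalloproteinases, at a distance of 0.0953. Timp1 was at 3.14 FPKM in mutant and 27.8 FPKM in control upper molars, and at 3.00 FPKM in mutant and 38.8 FPKM in control lower molars. The next were Mical2, which encodes an actin-oxidising enzyme, at 0.197, and Spp1, which encodes the secreted phosphoprotein osteopontin, at 0.247. Mical2 was at 0.311 FPKM in mutant and 9.97 FPKM in control upper molars, and 0.414 FPKM in mutant and 10.8 FPKM in control lower molars. Spp1 was at 0.0217 FPKM in mutant and 5.70 FPKM in control upper molars, and 0.0213 FPKM in mutant and 6.92 FPKM in control lower molars. All 3 were thus lower in both mutant libraries than in both controls, which follows from their choice by nearness to Fgf3. The distances rest on log2(FPKM + 1) and were not recomputed with another pseudocount. Timp1 kept 3.14 and 3.00 FPKM in the mutants, where Fgf3 was at 0 and 0.0365 FPKM. A small distance on this scale therefore does not mean a like FPKM ratio. By a rule chosen after the values were seen, only Fgf3 and Spp1 were under 0.05 FPKM in both mutant libraries and at 5 FPKM or more in both controls.

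Fgf10 (chromosome 13, 119503506 to 119581380), the other mesenchymal ligand of this group and a close relative of Fgf7, went the other way. It was at 3.66 FPKM in mutant and 1.74 FPKM in control upper molars, and at 8.34 FPKM in mutant and 2.12 FPKM in control lower molars. Both mutant values lay above both control values. The FPKM ratio of mutant over control was 2.10 in upper and 3.94 in lower molars. The log2 difference of 0.76 in upper molars was not counted, and that of 1.58 in lower molars was, at 1.97 above the median gene. With a pseudocount of 0.1 the upper difference was 1.03 and Fgf10 was counted in both jaws. With a pseudocount of 5 the lower difference was 0.91 and it was counted in neither. The limma mean difference was 1.17 (SE 0.30, adjusted p = 0.00281). Cartilage markers, of which 4 of 8 were measured, moved in the same direction, with a summed level of 17.4 FPKM in mutant and 10.5 FPKM in control upper molars, and 22.2 FPKM in mutant and 6.87 FPKM in control lower molars. Macrophage markers, all 6 of which were measured, had a summed level of 24.7 FPKM in mutant and 17.6 FPKM in control upper molars, and 30.1 FPKM in mutant and 22.9 FPKM in control lower molars. Epithelial markers were also higher in both mutants (values above). The part of these in the Fgf10 difference was not tested. In bulk RNA a change in the number of cells of a type and a change in RNA per cell cannot be told apart.

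Fgf18 (chromosome 11, 33017431 to 33047400), a ligand of cartilage and bone that acts on IIIc receptors and Fgfr3, was at 3.78 FPKM in mutant and 4.63 FPKM in control upper molars. In lower molars it was at 14.1 FPKM in the mutant and 9.01 FPKM in the control. Both lower molar values lay above both upper molar values, and the genotypes overlapped. Neither genotype difference was counted, at -0.24 for upper and 0.60 for lower molars. Relative to the median gene it was -0.21 and 0.98. After each of 3 rescalings the lower molar difference was between 1.05 and 1.08 and was counted. The limma mean difference over the jaws was 0.18 (SE 0.30, adjusted p = 0.816).

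Fgf7 (chromosome 2, 125860394 to 125916921), a ligand of the IIIb form of Fgfr2, was at 1.03 FPKM in mutant and 0.767 FPKM in control upper molars, and at 1.11 FPKM in both mutant and control lower molars. Its mean over the libraries lay just above the level needed to be measured. Fgf9 (chromosome 14, 58691523 to 58731557), an epithelial ligand in the tooth, was at 0.0751 FPKM in mutant and 0.122 FPKM in control upper molars, and at 0.0693 FPKM in mutant and 0.0643 FPKM in control lower molars. The genotypes overlapped for both genes. Both upper molar values lay below both lower molar values for Fgf7 and above them for Fgf9, and neither jaw difference was counted.

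As a share of the summed FPKM of the 5 ligand genes, Fgf3 made up 0% in mutant and 47.0% in control upper molars, and 0.154% in mutant and 41.3% in control lower molars. Fgf10 made up 42.8% in mutant and 12.7% in control upper molars, and 35.2% in mutant and 10.1% in control lower molars. The sum itself was 8.54 FPKM in mutant and 13.7 FPKM in control upper molars, and 23.7 FPKM in mutant and 21.0 FPKM in control lower molars. In both mutant libraries the levels ranked Fgf18, Fgf10, Fgf7, Fgf9 and Fgf3. In control upper molars they ranked Fgf3, Fgf18, Fgf10, Fgf7 and Fgf9, and in control lower molars Fgf18 stood above Fgf3 by 9.01 against 8.66 FPKM, an order that no replicate spread backs. Fgf18 and Fgf10 in mutant upper molars were as close, at 3.78 and 3.66 FPKM.

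**Figure D2:**
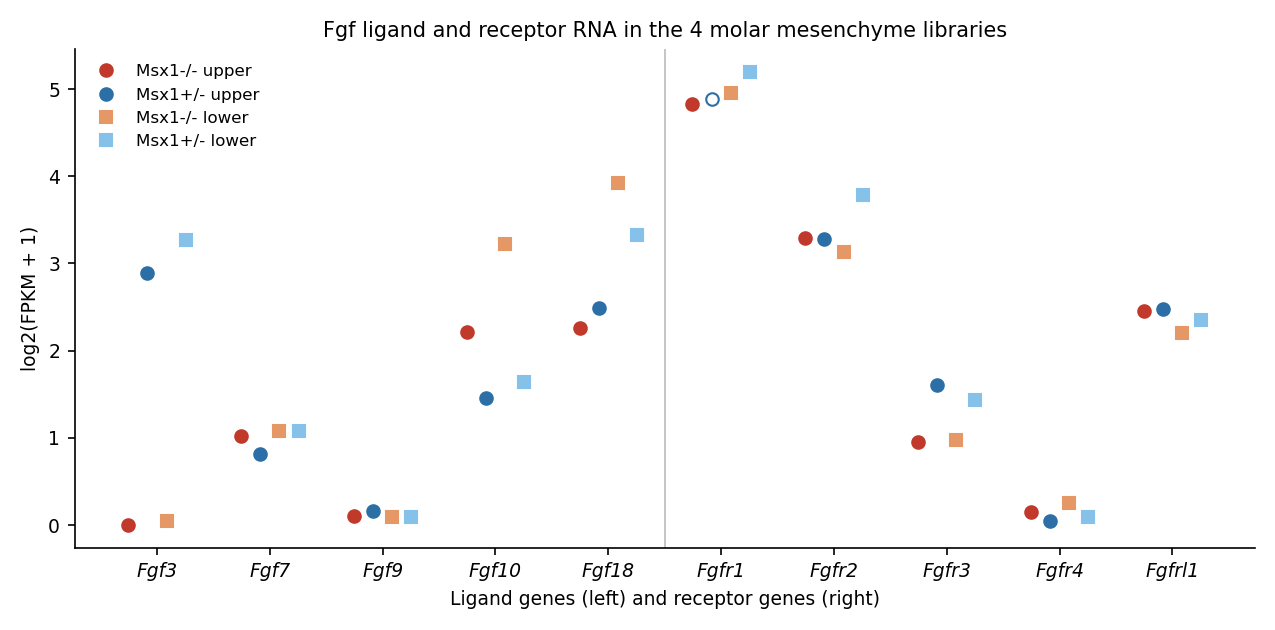
Level of each ligand and receptor gene as log2(FPKM + 1) in the 4 libraries, with Msx1-/- in red and orange, Msx1+/- in blue and light blue, circles for upper and squares for lower molars. The open circle marks the failed estimate of Fgfr1 in control upper molars. Fgf3 is at or near 0 in both mutants, Fgf10 is higher in both mutants, and Fgf18 is higher in both lower molar libraries.

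Among the receptors Fgfr1 (chromosome 8, 26629244 to 26686186), the main receptor of mesenchyme, was the most abundant. It was listed at 27.4 FPKM in mutant and 28.6 FPKM in control upper molars, the control value being the failed estimate, and at 30.0 FPKM in mutant and 35.7 FPKM in control lower molars. The differences computed from these values, -0.06 and -0.24, were not used for any count. Its 3 entries differ in an exon of 267 bases that only 2 of them hold. They also differ in an exon of 90 bases that is 84 bases in the entry of 5002 bases. In GENCODE their first and last exons differ as well, but the deposited entries share the same start and end. The split between entries is not described because it rests on the failed fit in control upper molars.

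Fgfr2 (chromosome 7, 137305965 to 137410322), whose IIIb form is the epithelial receptor for Fgf3, Fgf7 and Fgf10, was next at 8.78 FPKM in mutant and 8.69 FPKM in control upper molars, and 7.77 FPKM in mutant and 12.8 FPKM in control lower molars. The lower molar difference of -0.65 was -0.26 relative to the median gene. Fgfr3 (chromosome 5, 34064373 to 34079717), a receptor known from cartilage, was at 0.937 FPKM in mutant and 2.06 FPKM in control upper molars, and at 0.964 FPKM in mutant and 1.71 FPKM in control lower molars. Both mutant values of Fgfr3 lay below both control values. Its differences of -0.66 and -0.47 were not counted, the second was -0.08 relative to the median gene, and the limma adjusted p was 0.318. With a pseudocount of 0.1 the upper molar difference was -1.06 and was counted.

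Fgfrl1 (chromosome 5, 109123248 to 109135969), the receptor without a kinase, was at 4.48 FPKM in mutant and 4.56 FPKM in control upper molars, and at 3.60 FPKM in mutant and 4.12 FPKM in control lower molars. Fgfr4 (chromosome 13, 55254179 to 55270120), known from myogenic cells, was at 0.107 FPKM in mutant and 0.0316 FPKM in control upper molars, and at 0.194 FPKM in mutant and 0.0637 FPKM in control lower molars. Both mutant values of Fgfr4 lay above both control values, at levels too low to be counted. Skeletal muscle markers (2 of 10 measured, Ckm at 0 in every library) did not move with Fgfr4 as a sum. Their summed level was 3.61 FPKM in mutant and 4.73 FPKM in control upper molars, and 4.35 FPKM in mutant and 5.89 FPKM in control lower molars. Single markers differed in direction, with Chrna1 lower and the weakly expressed Myh3 higher in both mutants. The part of muscle cells in the Fgfr4 values was not tested. The order Fgfr1, Fgfr2, Fgfrl1, Fgfr3 and Fgfr4 held in all 4 libraries. Fgfr1 made up 65.1% to 70.5% of summed receptor FPKM.

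The transcript entries of Fgfr2 differed in share between the genotypes, also in upper molars where the gene totals were close. The entry that holds the IIIb exon was at 5.80 FPKM in mutant and 3.32 FPKM in control upper molars, and at 3.78 FPKM in mutant and 4.48 FPKM in control lower molars. The entry with the IIIc exon was at 2.98 FPKM in mutant and 5.37 FPKM in control upper molars, and at 3.99 FPKM in mutant and 8.27 FPKM in control lower molars. The IIIb entry thus held 66.1% of Fgfr2 FPKM in mutant and 38.2% in control upper molars, and 48.6% in mutant and 35.1% in control lower molars. Both mutant shares lay above both control shares. The mean share was 57.3% in mutants and 36.7% in controls, and an exact two-sided permutation test of 2 against 2 libraries gave p = 0.333, the smallest it can give.

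The entries differ in more than that exon. The IIIc entry also holds 2 exons of 78 and 267 bases that the IIIb entry lacks. In GENCODE the last exon is 1673 bases in the IIIb entry and 415 bases in the IIIc entry, and the first is 470 and 398 bases. Those end differences are not in the deposited entries, which share their start and end and are 4856 (IIIb) and 5198 (IIIc) bases long. The share may reflect any of the internal exon differences, and transcript quantification of this kind divides shared reads between entries by a model. Esrp1, a splicing factor of epithelia that promotes IIIb forms, was at 1.16 FPKM in mutant and 0.372 FPKM in control upper molars, and at 1.47 FPKM in mutant and 0.920 FPKM in control lower molars. The epithelial marker list, which includes Esrp1, was higher in both mutants as given above. The part of these in the Fgfr2 share was not tested. In Fgfr3 the IIIb entry held 41.0% in mutant and 62.8% in control upper molars, and all but 1.35e-05 FPKM of the total in mutant and 35.1% in control lower molars, so the genotypes overlapped (exact two-sided permutation p = 0.667) at total levels of about 1 to 2 FPKM.

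**Figure D3:**
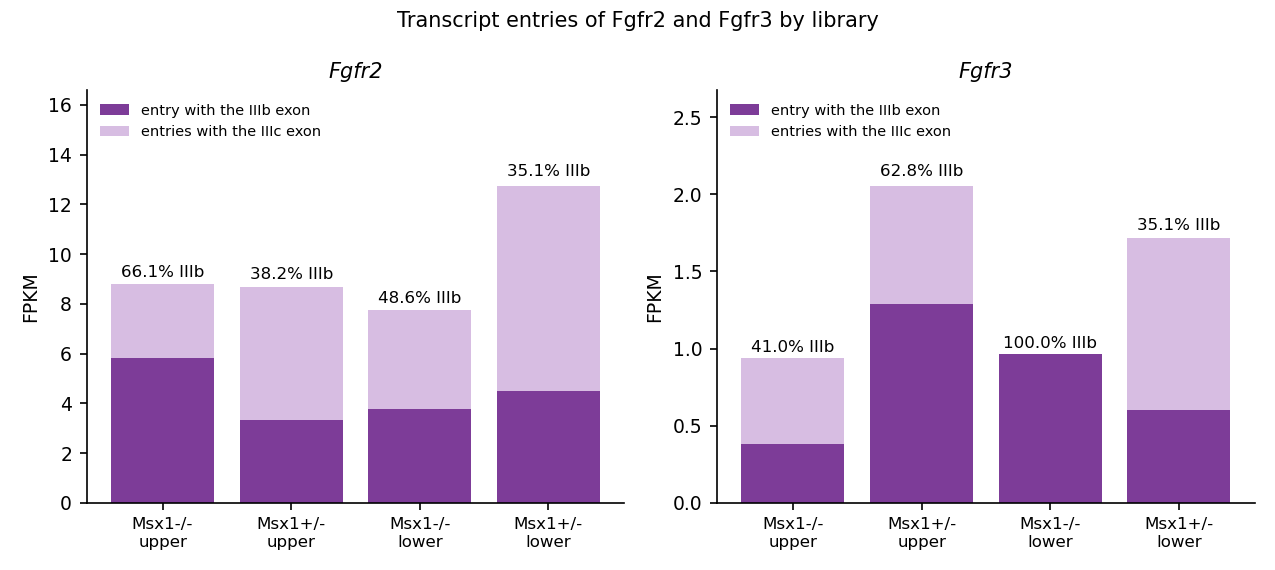
FPKM of the transcript entries with the IIIb exon (dark) and the IIIc exon (light) of Fgfr2 and Fgfr3 in the 4 libraries, stacked, with the IIIb share above each bar. The Fgfr2 IIIb share is 66.1% and 48.6% in the mutants, above 38.2% and 35.1% in the controls, and the Fgfr3 shares overlap.

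Jaws of the same genotype were compared next, with differences given as upper minus lower. Fgf18 was lower in upper molars in both genotypes. In mutants 2 of the 7 measured members (Fgf10 and Fgf18) were lower in upper molars and 0 were higher, against 0.418% lower and 3.22% higher of all genes. After rescaling by median of ratios the split over all genes was 103 lower and 135 higher, against 44 and 339 as deposited. In controls 0 were lower and 0 higher, against 0.218% lower and 1.48% higher of all genes. The median gene differed by 0.27 in mutants and by -0.08 in controls.

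Fgf18 had a difference of -1.66 between mutant upper and lower molars and of -0.83 between control upper and lower molars. Relative to the median gene these were -1.94 and -0.75. The lower molar level was 3.75 times the upper molar level in mutants and 1.95 times in controls. In the limma model the mean jaw difference was -1.25 (SE 0.30, adjusted p = 0.00549), and Fgf18 was the only member called for jaw. Of all genes that model called 0.161% lower and 0.769% higher in upper molars. Osteoblast markers (5 of 7 measured) had a summed level of 50.4 FPKM in upper and 31.5 FPKM in lower molars of mutants. In controls the sum was 34.1 FPKM in upper and 33.7 FPKM in lower molars. Single markers differed in direction. Sp7, Ibsp and Alpl were higher in mutant upper than in mutant lower molars. Ifitm5 was lower in upper molars, at 4.11 against 5.44 FPKM in mutants and 0.681 against 1.44 FPKM in controls. Cartilage markers were at a summed 17.4 FPKM in upper and 22.2 FPKM in lower molars of mutants, and at 10.5 FPKM in upper and 6.87 FPKM in lower molars of controls. The part of bone or cartilage cells in the Fgf18 jaw difference was not tested.

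Fgf10 differed by -1.003 between mutant upper and lower molars, just past the counting threshold, and by -0.18 between control upper and lower molars. With a pseudocount of 5 the mutant jaw difference was -0.62 and was not counted, and in the limma model the mean jaw difference was -0.59 (adjusted p = 0.890). The genotype difference of Fgf10 was -0.82 in upper minus lower molars and that of Fgf18 was -0.83, and 0 of the 7 members reached 1 in either direction, against 5.60% of all genes on the positive and 1.31% on the negative side. With median-of-ratios scaling these were 159 positive and 303 negative genes, against 590 and 138 as deposited. After rescaling, Fgf10 and Fgf18 both passed on the negative side, at -1.20 and -1.25 by median of ratios. That difference between jaws has no test.

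The other genes of the pathway were described from 7 lists with 66 genes, of which 46 were measured. In both jaws 5 of them were lower and 1 was higher in the mutant, against 1.59% and 0.399% of all genes. In upper molars 7 were lower and 3 higher, against 3.26% and 1.07% of all genes. In lower molars 9 were lower and 1 higher, against 9.43% and 0.864% of all genes, a background that changed with scaling as given above. Their median differences were -0.14 (upper) and -0.40 (lower), against -0.03 and -0.39 for all genes. The lists were drawn up with results of these libraries known.

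Of the other ligands 5 of 17 were measured. Fgf2, a ligand stored on extracellular matrix, was at 2.48 FPKM in mutant and 2.70 FPKM in control upper molars, and 3.35 FPKM in mutant and 2.85 FPKM in control lower molars. Fgf1, a ligand of all receptors, was at 0.216 FPKM in mutant and 1.74 FPKM in control upper molars, and 0.544 FPKM in mutant and 1.64 FPKM in control lower molars. It was counted as lower in upper molars alone (-1.17 and -0.77), and the limma adjusted p was 0.0223. Fgf13 and Fgf14 belong to the intracellular Fgf homologues that bind sodium channels and do not signal through these receptors. Fgf14 was at 4.73 FPKM in mutant and 1.06 FPKM in control upper molars, and 2.64 FPKM in mutant and 1.31 FPKM in control lower molars. Its differences were 1.48 and 0.66 (limma adjusted p = 0.00904). Fgf13 was lower in lower molars alone, at 2.47 FPKM in mutant and 8.25 FPKM in control, against 8.06 FPKM in mutant and 8.37 FPKM in control upper molars. The epithelial ligand gene Fgf4, with Fgf6 and Fgf15, was listed at 0 in every library, and Fgf8 and Fgf20 were under 0.1 FPKM throughout.

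Of the coreceptors and ligand carriers 3 of 7 were measured. Flrt2, a membrane protein that binds Fgf receptors and guidance receptors, was higher in both jaws, at 21.1 FPKM in mutant and 6.33 FPKM in control upper molars, and 22.1 FPKM in mutant and 6.80 FPKM in control lower molars. Its differences were 1.59 and 1.57 (limma adjusted p = 8.61e-06), and it was counted in both jaws under all alternatives run. Flrt3, its relative, known in Xenopus to promote Fgf signalling, was at 28.4 FPKM in mutant and 10.6 FPKM in control upper molars, and 23.2 FPKM in mutant and 16.5 FPKM in control lower molars. Its differences were 1.34 and 0.47 (limma adjusted p = 0.0396).

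All 9 heparan sulfate enzyme genes were measured and 0 were counted in both jaws. The most abundant were Ext2, a chain polymerase at 37.3 FPKM in mutant and 44.4 FPKM in control upper molars, and 67.2 FPKM in mutant and 36.2 FPKM in control lower molars, and Sulf2, an extracellular sulfatase at 31.1 FPKM in mutant and 26.3 FPKM in control upper molars, and 20.6 FPKM in mutant and 28.3 FPKM in control lower molars. Ext1, the partner of Ext2, was lower in both mutants but counted in lower molars alone. It was at 15.5 FPKM in mutant and 24.2 FPKM in control upper molars, and 10.7 FPKM in mutant and 26.5 FPKM in control lower molars. Its differences were -0.62 and -1.23, the second where the median gene differed by -0.39. Of 16 adaptors and kinases 15 were measured and 0 were counted in both jaws. Gab1, a docking protein downstream of the receptors, was at 18.1 FPKM in mutant and 36.9 FPKM in control upper molars, and 15.8 FPKM in mutant and 48.6 FPKM in control lower molars. Its differences were -0.99 and -1.56 (limma adjusted p = 0.000815). Mapk3, a MAP kinase at the end of the cascade, was at 15.3 FPKM in mutant and 13.9 FPKM in control upper molars, and 12.6 FPKM in mutant and 15.2 FPKM in control lower molars.

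Feedback inhibitors and target transcription factors of the pathway held all 5 genes that were lower in both jaws. Of 9 measured inhibitors 3 were lower, namely Spry1, Spry4 and Dusp6, and of 3 measured targets 2 were lower, namely Etv4 and Etv5. Spry4 was at 2.88 FPKM in mutant and 18.7 FPKM in control upper molars, and 3.52 FPKM in mutant and 19.8 FPKM in control lower molars. Etv4 and Etv5 were also lower in both mutants than in both controls, with upper and lower differences of -2.55 and -1.92 for Etv4 and -2.23 and -1.98 for Etv5. Those of Dusp6, a phosphatase of MAP kinases, were -1.07 and -2.36, and those of Spry1 were -1.51 and -1.29. Spred2, also an inhibitor of the cascade and among the most abundant of the list, was not counted, at 9.34 FPKM in mutant and 14.5 FPKM in control upper molars, and 12.4 FPKM in mutant and 13.3 FPKM in control lower molars. Spry2, from the same inhibitor family, was at 2.52 FPKM in mutant and 2.01 FPKM in control upper molars, and 3.36 FPKM in mutant and 2.67 FPKM in control lower molars. Etv1 was at -1.03 and -0.94, so it was counted in upper molars alone (limma adjusted p = 0.0202). Spry1 was not counted in both jaws after any of the 3 rescalings or with a pseudocount of 5. Dusp6 was not counted in both jaws after rescaling to a common upper quartile or total or with a pseudocount of 5, and Etv4 was not with a pseudocount of 5. Of the splicing regulators 2 of 4 were measured, the general repressor Ptbp1 and Rbfox2, and neither was counted. Ptbp1 was at 88.7 FPKM in mutant and 108 FPKM in control upper molars, and 78.4 FPKM in mutant and 105 FPKM in control lower molars.

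**Figure D4:**
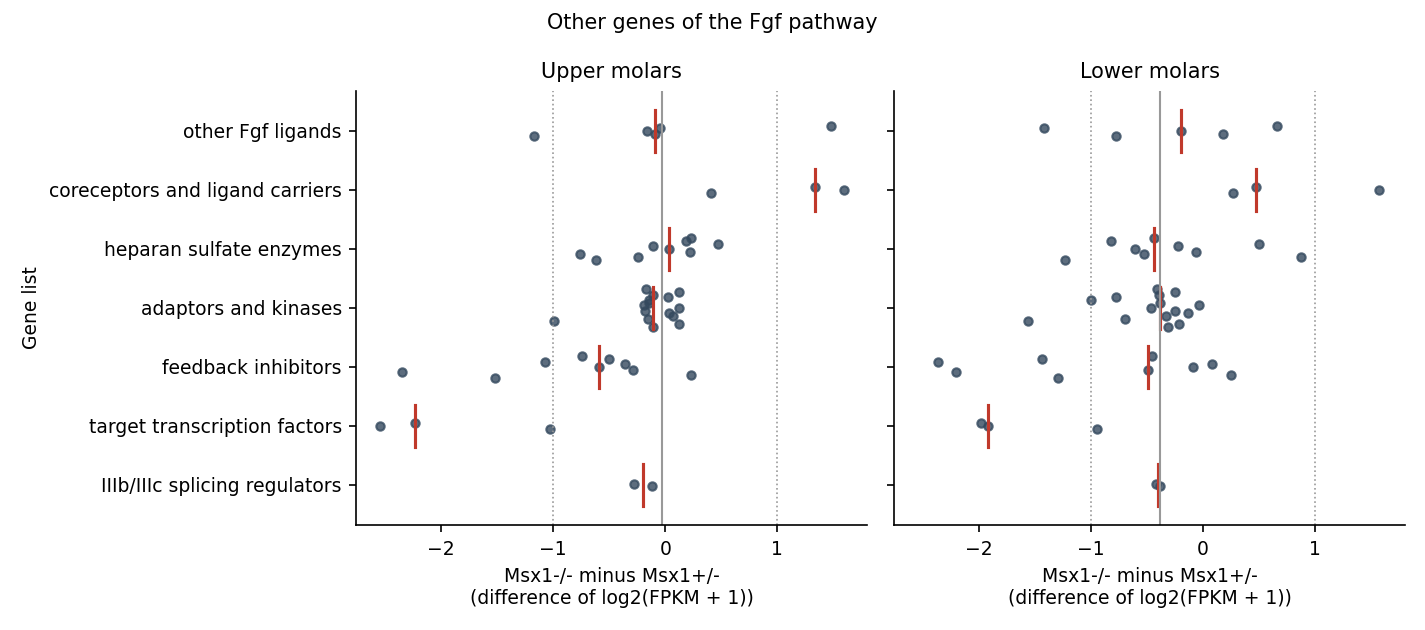
Genotype difference of log2(FPKM + 1), Msx1-/- minus Msx1+/-, for each measured gene of 7 pathway lists in upper and lower molars. Points are genes, red bars list medians, the grey line the median of all genes and dotted lines a difference of 1. The target transcription factors have a median of -2.23 in upper and -1.92 in lower molars, and the adaptors and kinases one of -0.11 and -0.38.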

How the data were processed

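RNA of 4 laser-captured molar mesenchyme samples was amplified with the NuGEN Ovation v2 kit and sequenced in a common lane, per the labels. The submitters' processing notes name Bowtie 0.12.7, TopHat 1.4.1 and build mm9. Per the file headers, the deposited tables hold FPKM and a coverage signal (mean read depth per base) for 28107 RefSeq entries. No source used here gives the Cufflinks version. Coverage was FPKM times 1.09 in mutant upper, 1.05 in control upper, 0.924 in mutant lower and 0.812 in control lower molars. No counts were given, so no counting interval is printed.

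FPKM was summed per gene name. Genes with a failed estimate (66) and small RNA names (716) were left out, and a mean of at least 1 FPKM left 10537 genes. Differences were taken on log2(FPKM + 1) with no rescaling and counted at 1 or more. With 1 library per group no test was applied to them. limma 3.58.1 in R 4.3.3 was fitted over all genes to the values without rescaling, with Benjamini-Hochberg adjustment and a threshold of 0.05. It was run on simulated data drawn with the spread of that same fit, equal for every gene and without a jaw effect. That run therefore checks the code and not the assumption of equal spread. Starts in the tables were taken as counted from 0 and raised by 1. Promoter coordinates are of GRCm38 and were not mixed with mm9. A list gene and an exon sequence are not reported here. All Fgfr1, Fgfr2 and Fgfr3 entries were matched to GENCODE by accession. The kit is not stated to keep strand. The members, lists and rule for named genes (all members, list genes counted in both jaws or most abundant, nearest profiles) were chosen with earlier results of these data known. Further list genes, such as Fgf1, Fgf14, Etv1, Spry2 and Ext1, were named after their values were seen.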

Additional observations from a re-analysis of the deposited data

Results flagged for a closer look

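Measured members are given here where a contrast had opposite signs in the groups compared, a difference that was not tested. For Fgf18 the genotype differences were -0.24 (upper) and 0.60 (lower), and their upper minus lower gap was -0.83. That of Fgfr2 was 0.01 in upper and -0.65 in lower molars, a gap of 0.66, and that of Fgf7 was 0.20 and -0.0018, a gap of 0.20. The upper minus lower difference of Fgfr2 was 0.16 in mutants and -0.51 in controls, again 0.66 apart, and that of Fgfr3 was -0.02 and 0.17, a mutant minus control gap of -0.19.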

How the results depend on the processing

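Of 320 member differences recomputed under 10 alternatives (8 planned and 2 chosen after seeing the data), 307 stayed on their side of the threshold, 11 passed it only under the alternative, 2 no longer passed it and 0 called values reversed. Many of the 307 could not move. The 2 added alternatives and both changes of filter leave the value of a measured member as it was. Keeping only the highest entry does so for genes with a single entry. The 307 therefore overstate how stable the values are. Fgf3 was lower in both jaws under every alternative that kept it. Under a minimum mean of 5 FPKM it was not measured, and 0 members were lower in upper molars, lower molars or both jaws, 0 were higher in lower molars and 1 was lower in mutant upper against lower molars. With a pseudocount of 0.1, 1 member was higher and 2 were lower in upper molars and 1 was higher in both jaws. With a pseudocount of 5, 0 were higher in lower molars and 1 was lower in mutant upper against lower molars. After rescaling by median of ratios, to a common upper quartile or to a common total, 2 were higher in lower molars and 2 were more negative in upper than lower molars. In limma 1 was higher and 1 lower for genotype, and 1 was lower in upper molars. Over all genes, rescaling by median of ratios gave 254 higher and 316 lower in mutant lower molars, against 91 and 994 as deposited, and 75 higher and 121 lower in both jaws, against 42 and 168. It gave 135 higher and 103 lower in mutant upper against lower molars, against 339 and 44. The cause of these shifts was not tested. Entry shares within a gene do not depend on scaling, filter or pseudocount. No paired analysis was possible because the labels give no replicate numbers and each group holds 1 library, and limma compared genotypes within jaws, not within pairs of embryos. Depth limits Fgf9 and Fgfr4, which lie under 0.2 FPKM.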
